A study of Mus musculus with 8 samples.

Results

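The miRNAs described here are the arms of 3 hairpins that are known from leukocytes: miR-223, miR-142a and miR-511. The 6 members were chosen by name out of 1881 mouse miRNAs on the array. Earlier results of these data were known at that point, so the p-values below do not test a set fixed in advance. The members were mmu-miR-223-3p, mmu-miR-223-5p, mmu-miR-142a-3p, mmu-miR-142a-5p, mmu-miR-511-3p and mmu-miR-511-5p. They were read by 15 of the 4415 mouse probes. The samples were whole kidneys of male C57BL/6 mice aged 8 weeks. In 4 of them the kidney came 7 days after unilateral ureteral obstruction (UUO), a surgery that blocks urine flow from 1 kidney and is used as a model of kidney inflammation and fibrosis. The other 4 came 7 days after sham surgery (Sham). Each sample was read on 1 array, and the labels number them UUO 1 to 4 and Sham 1, 2, 3 and 8 without saying that each is a different mouse. The labels name no transgene, deletion or drug in either group.

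A miRNA is cut from a hairpin precursor and can come from its left arm (5p) or its right arm (3p). It recognises its target mRNAs mainly through the seed, bases 2 to 8 from its 5′ end. miR-223 is made in myeloid cells, above all neutrophils and monocytes, where it restrains granulocyte production and activation in mice. miR-142 is made in nearly all blood cell lineages and in few other cells, so it is often used as a mark of leukocytes as a whole. miR-511 lies in Mrc1, the gene of the macrophage mannose receptor CD206, and in mouse macrophages its 3p arm is the active one.

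The mature sequences are shown because the seeds decide which of these miRNAs could share targets. RefSeq (GRCm38.p6) held 5 of the 6 members. Capitals mark the seed.
mmu-miR-223-3p: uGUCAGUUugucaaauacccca
mmu-miR-223-5p: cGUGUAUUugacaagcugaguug
mmu-miR-142a-3p: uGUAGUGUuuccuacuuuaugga
mmu-miR-142a-5p: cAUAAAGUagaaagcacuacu
mmu-miR-511-3p: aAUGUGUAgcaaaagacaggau
All 5 seeds differ from each other. Among 1608 miRNAs of the array that have a sequence in the table, 0 others carry any of these seeds. The 3 hairpins also lie on 3 chromosomes, all on the plus strand. miR-223-3p spans chrX:96242884-96242905 and miR-223-5p spans chrX:96242842-96242864, within the long non-coding RNA gene F630028O10Rik. miR-511-3p spans chr2:14261051-14261072, within the span of Mrc1. miR-142a-5p spans chr11:87756867-87756887 and miR-142a-3p spans chr11:87756903-87756925.

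The miR-142a hairpin, at chr11:87756864-87756927, is shown because both of its arms were measured. Capitals mark the 5p arm on the left and the 3p arm on the right.
Mir142 hairpin: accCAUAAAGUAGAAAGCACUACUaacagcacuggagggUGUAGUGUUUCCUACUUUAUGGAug
The opposite strand of this locus is annotated with another hairpin, Mir142b. Its mature product mmu-miR-142b, at chr11:87756906-87756925 on the minus strand, is the exact reverse complement of 20 bases of miR-142a-3p.
mmu-miR-142b: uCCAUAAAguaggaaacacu

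Signals below are log2 of the processed spot intensity after division by the 75th percentile, on the same array, of the probes that all 8 arrays detected. Detection of a probe required over 50% of its spots to be well above background. Each miRNA was represented by its brightest probe. The 408 miRNAs detected on at least 4 arrays were tested with limma, and a miRNA was called at a Benjamini-Hochberg adjusted p under 0.05. Of the members, 4 were tested: miR-223-3p, both miR-142a arms and miR-511-3p. miR-223-5p and miR-511-5p were detected on 0 of 8 arrays. Before scaling, the 75th percentile was 465 ± 22.2 intensity units on UUO arrays and 406 ± 8.67 on Sham arrays (SD, n = 4 each). Arrays detected between 720 and 800 probes, and 0 spots were saturated. All arrays were on 1 slide, with UUO in slide row 2 and Sham in slide row 1, so that row and surgery cannot be told apart.

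miR-223-3p and both arms of miR-142a were called higher in UUO than in Sham kidneys: miR-223-3p by 4.92-fold, miR-142a-3p by 4.86-fold and miR-142a-5p by 4.10-fold. miR-511-3p was well above background in every UUO kidney and in no Sham kidney. Its difference is given as a bound, at least 5.99-fold against the lowest signals detected on the Sham arrays, and 5.61-fold against the higher floor common to all arrays. Over all tested miRNAs 162 of 408 were called higher in UUO (39.7%) and 113 lower, with a median change of 0.06 on the log2 scale. A gap in which every UUO array lay above every Sham array was present for 143 of the 408 (35%), miR-223-3p and both miR-142a arms among them. A fitted change of at least 4-fold upwards was rarer: it was found for 10 of 408 (2.45%), and the 4 arms ranked 5, 7, 8 and 10 among them. That limit lies just under the smallest change of the 4 arms, 4.10-fold for miR-142a-5p, which the same 10 miRNAs reach. The count and the ranks are therefore descriptions and no support for the arms. miR-511-3p passed the detection filter through the UUO arrays alone and so had to differ, and its place there and its fitted p are descriptions that support nothing. In RNA of a whole kidney, a change in the number of cells that make a miRNA and a change in its amount per cell cannot be told apart.

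**Figure D1:**
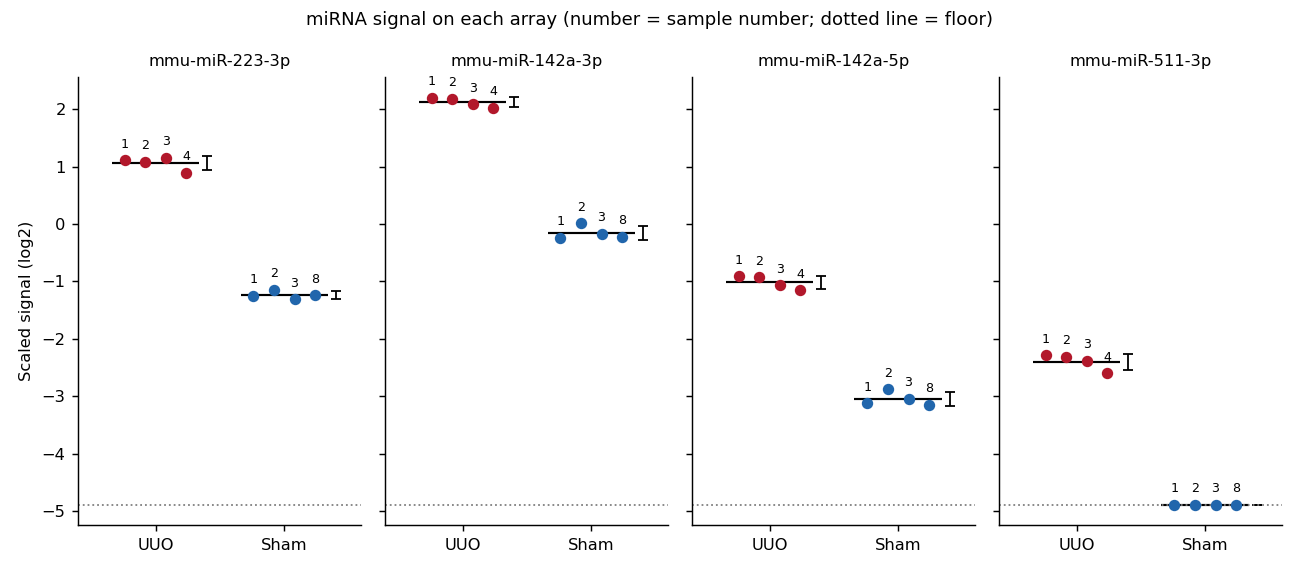
Scaled signal (log2) of the 4 detected arms on each array, with UUO left and Sham right of each panel. Points are arrays with their sample numbers, lines are group means, bars are the SD over 4 arrays and the dotted line is the floor at -4.89. In every panel all UUO points lie above all Sham points, and the Sham points of miR-511-3p lie on the floor. Levels should be compared within a panel only, since each miRNA has its own probe.

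miR-223-3p, the arm of miR-223 known to be loaded and active in myeloid cells, had signals of 1.11, 1.09, 1.16 and 0.89 in UUO 1 to 4. In Sham 1, 2, 3 and 8 its signals were -1.25, -1.15, -1.31 and -1.24. The lowest UUO array was UUO 4, and the gap between the groups was many times the spread within either. The change was 2.30 ± 0.07 on the log2 scale (SE of the fit), with a 95% interval of 4.41 to 5.50 for the fold and a limma adjusted p of 3.69e-08.

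Both of its probes read the change. They are shown because they differ by 1 base, in capitals, and are complementary to the miRNA from its 3′ end.
miR-223-3p probe of 21 bases: tggggtatttgacaaactgaC
miR-223-3p probe of 20 bases: tggggtatttgacaaactga
The longer probe averaged 971 ± 74.5 intensity units on UUO arrays and 172 ± 6.47 on Sham arrays (SD, n = 4 each). The shorter probe averaged 439 ± 36.5 on UUO arrays and 83.5 ± 3.03 on Sham arrays, a 4.59-fold difference after scaling. The change read by the shorter probe was 2.20 ± 0.07 on the log2 scale (SE). For the opposite arm, miR-223-5p, 3 probes were printed, and their mean intensities lay between -2.16 and -0.68 on UUO arrays and between -2.74 and 0.23 on Sham arrays. These values lie around 0, the level of the subtracted background, so miR-223-5p has no fold here.

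miR-142a-3p, a strand that leukocytes of nearly all lineages carry, had signals of 2.20, 2.18, 2.08 and 2.02 in UUO 1 to 4, against -0.25, 0.01, -0.17 and -0.23 in Sham 1, 2, 3 and 8. The groups did not overlap, and Sham 2 was the highest of the Sham arrays. The change was 2.28 ± 0.07 on the log2 scale (SE), with a 95% interval of 4.33 to 5.45 for the fold and a limma adjusted p of 5.01e-08.

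The probes of miR-142a-3p differ by a terminal base in capitals, and read nearly the same change.
miR-142a-3p probe of 23 bases: tccataaagtaggaaacactacA
miR-142a-3p probe of 22 bases: tccataaagtaggaaacactac
The longer one averaged 2023 ± 124 intensity units on UUO arrays and 364 ± 22.5 on Sham arrays (SD, n = 4 each). The shorter one averaged 1153 ± 66.0 on UUO arrays and 206 ± 11.1 on Sham arrays. Their changes were 2.28 and 2.29 on the log2 scale.

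miR-142a-5p, the other arm of the same hairpin, had signals of -0.91, -0.93, -1.07 and -1.16 in UUO 1 to 4, against -3.12, -2.88, -3.05 and -3.16 in Sham 1, 2, 3 and 8. As for the 3p arm, the groups did not overlap and Sham 2 was the highest Sham array. The change was 2.03 ± 0.08 on the log2 scale (SE), with a 95% interval of 3.59 to 4.67 for the fold and a limma adjusted p of 1.87e-07.
miR-142a-5p probe of 19 bases: agtagtgctttctactttA
miR-142a-5p probe of 18 bases: agtagtgctttctacttt
The 19-base probe averaged 230 ± 17.9 intensity units on UUO arrays and 49.0 ± 3.25 on Sham arrays (SD, n = 4 each). The 18-base probe averaged 234 ± 17.4 on UUO arrays and 47.0 ± 3.12 on Sham arrays, with a change of 2.12 ± 0.08 (log2, SE). With normexp background correction the change of miR-142a-5p was 1.23 on the log2 scale, and it was still called. That setting adds an offset of 50 intensity units to every spot, which by construction narrows the changes of dim probes.

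mmu-miR-142b, on the opposite strand of the locus, was detected on 0 of 8 arrays. Its probe intensities lay between -1.70 and 0.26 on UUO arrays and between -1.24 and 0.75 on Sham arrays. Signal at this locus was thus read from the miR-142a strand and was not detectable from the other strand at the brightness these arrays resolve.

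**Figure D2:**
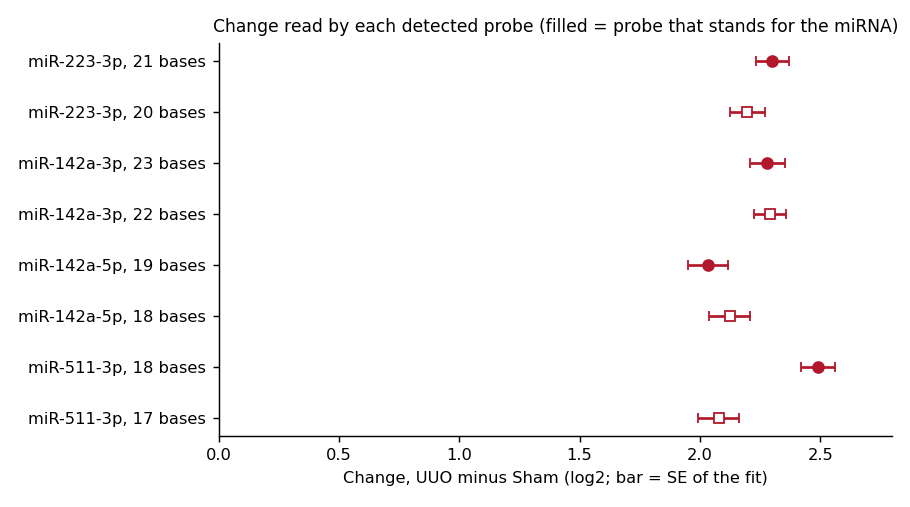
Change (UUO minus Sham, log2) read by each of the 8 detected probes, labelled by miRNA and probe length. Filled points are the probes that stand for a miRNA, open squares the other probe, and bars the SE of the fit over 8 arrays. The 8 changes lie between 2.03 and 2.49, and those of the miR-511-3p probes were set against the floor in Sham.

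miR-511-3p, the arm that is active in mouse macrophages, was detected on 4 of 4 UUO arrays and on 0 of 4 Sham arrays. Its signals were -2.29, -2.32, -2.39 and -2.60 in UUO 1 to 4, and all 4 Sham arrays were at the floor of -4.89. Before the floor, the brighter probe had mean intensities of 98.4, 87.1, 88.2 and 79.1 on UUO 1 to 4, against 7.72, 6.60, 5.85 and 6.31 on Sham 1, 2, 3 and 8. On Sham arrays 0 of its 15 spots were well above background, though the mean intensity was above 0 on each. Whether Sham kidneys held a low level could not be resolved at this brightness. The bound of 5.99-fold (2.58 on the log2 scale) sets the UUO mean against the mean, over the Sham arrays, of the lowest signal of any detected probe. Against the common floor of -4.89, which is higher than that mean of -4.98, the same UUO mean gave the fitted change of 2.49 ± 0.07 (log2, SE), or 5.61-fold. The limma adjusted p of 3.07e-08 belongs to this fit. All 4 Sham values in it are the same floor, so it leaves out the spread between Sham kidneys and is no test of the difference.

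The fitted size depends on how signal below background is handled: 1.49 on the log2 scale with a doubled floor, 0.80 with normexp and 3.55 with no floor. With the software's total intensity per miRNA, which is set to a fixed low value where nothing is detected, it was 4.60, and with the deposited ratio table it was 8.29. All of these are above 0. The arm passed the detection filter through the UUO arrays alone, so this sign was fixed in advance and supports nothing.
miR-511-3p probe of 18 bases: atcctgtcttttgctacA
miR-511-3p probe of 17 bases: atcctgtcttttgctac
The 18-base probe averaged 88.2 ± 7.91 intensity units on UUO arrays and 6.62 ± 0.80 on Sham arrays (SD, n = 4 each). The 17-base probe averaged 66.5 ± 7.64 on UUO arrays and 4.12 ± 0.62 on Sham arrays. It too was detected on all 4 UUO arrays and on 0 Sham arrays, with a fitted change of 2.08 ± 0.09 (log2, SE). The 5p arm was read by 4 probes of 17 to 20 bases, and no spot of them was well above background. Their mean intensities lay between -0.82 and 3.73 on UUO arrays and between -1.63 and 1.98 on Sham arrays.

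UUO 4 was the lowest UUO array for each of the 4 tested arms. It was also the lowest UUO array for 155 of all 408 tested miRNAs (38.0%) and for 45 of the 162 that were called higher (27.8%). Without UUO 4 the changes were 2.36 for miR-223-3p, 2.31 for miR-142a-3p, 2.08 for miR-142a-5p and 2.56 for miR-511-3p on the log2 scale. The calls of miR-223-3p and both miR-142a arms were kept without any 1 array. Over the spots of a probe on an array, the median coefficient of variation was between 2.95% and 7.49% for the 8 detected probes, which is technical error within an array and not the spread between kidneys.

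**Figure D3:**
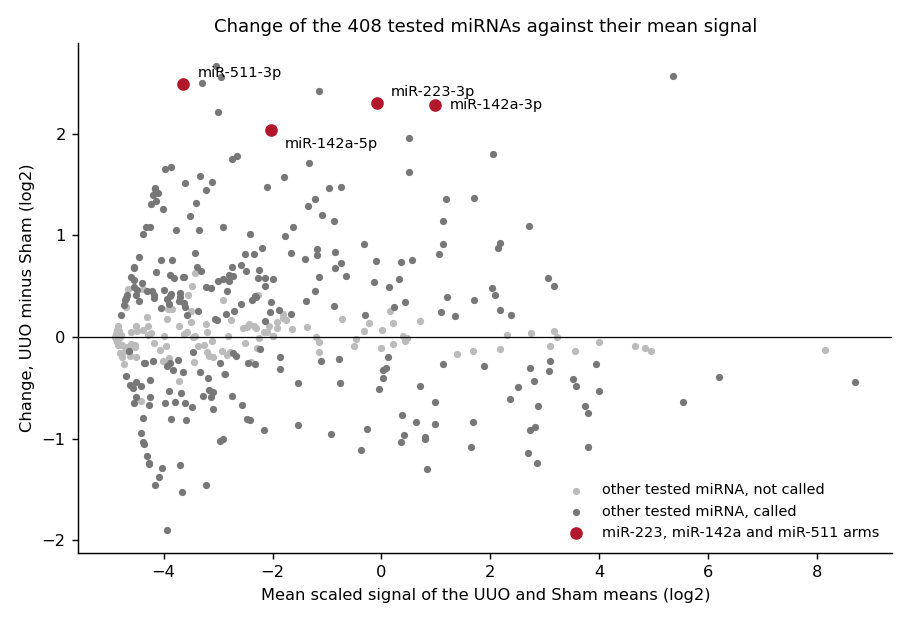
Change (UUO minus Sham, log2) of each of the 408 tested miRNAs against the mean of its UUO and Sham means (log2 scaled signal). Dark grey points were called and light grey points were not, and the 4 arms are in red. The arms lie at the upper edge, between 2.03 and 2.49, at dim and at bright mean signals. The left edge of the cloud is set by the floor.

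Whether the arms changed by the same amount was tested on their difference within each array, with an exact 2-sided permutation test over the arrays, for 4 pairs. With 4 arrays against 4 there are 70 splits and the smallest p is 0.0286. The change of miR-142a-3p was larger than that of miR-142a-5p by 0.25 on the log2 scale, with an exact p of 0.0286 and an adjusted p of 0.0381 over the 4 pairs. Adjusted over the 2 pairs that leave out miR-511-3p, an alternative chosen after seeing the data, the exact test gave 0.0571. The pairs with miR-511-3p rest on its floor in Sham and have the same exact p of 0.0286. The adjusted p of 0.0381 leans on them, so the call rests on pairs that cannot themselves be read. The within-array difference of the arms ran from 3.11 to 3.18 on the 4 UUO arrays and from 2.88 to 2.93 on the 4 Sham arrays, without overlap. Since each arm has its own probe, the size of that difference on 1 array has no meaning by itself, and only its shift between groups is read.

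The shift between the miR-142a arms kept its sign in every alternative run, but its size did not stay the same. It was 0.61 with quantile normalization, 0.89 with normexp, and from 0.16 to 0.26 over the 4 pairings of a 3p with a 5p probe, an alternative that was chosen after seeing the data. Beside it stands the brightness of the probes: on Sham arrays the 5p probe averaged 49.0 intensity units and the 3p probe 364. The normexp value includes the offset of 50 intensity units, which by construction narrows the change of the dimmer 5p probe more. The part of probe brightness in the shift under the other settings was not tested.

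miR-223-3p and miR-142a-3p, from different chromosomes and with different seeds, differed in their change by 0.02 on the log2 scale (exact p = 0.771, adjusted 0.771). Their within-array difference ran from -1.13 to -0.93 on UUO arrays and from -1.16 to -1.002 on Sham arrays, and these ranges overlap. A difference between their changes was not detectable with 4 arrays per group, which does not show that they changed alike. With quantile normalization it was -0.23 (exact p = 0.0286), so its sign and its call depend on the scaling.

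The fitted change of miR-511-3p exceeded that of miR-223-3p by 0.19 and that of miR-142a-3p by 0.21. These differences rest on the floor in Sham. They were -0.81 and -0.79 with a doubled floor and -1.18 and -1.32 with normexp, but 1.25 and 1.27 with no floor, so no order of miR-511-3p against the others can be read.

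**Figure D4:**
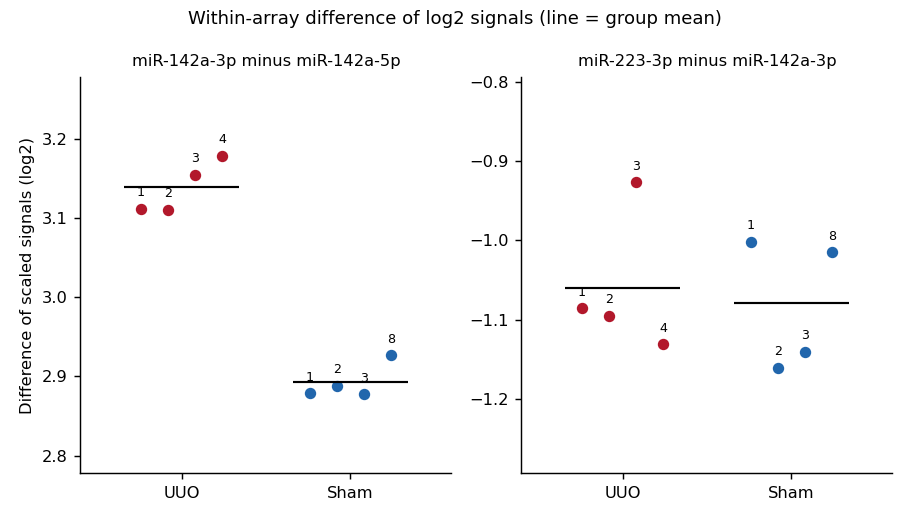
Within-array difference of log2 scaled signals, with UUO left and Sham right, for miR-142a-3p minus miR-142a-5p and for miR-223-3p minus miR-142a-3p. Points are arrays with their sample numbers, lines are group means, and both axes span the same width but do not start at 0. The groups separate for the miR-142a arms, 3.11 to 3.18 against 2.88 to 2.93, and overlap for miR-223-3p against miR-142a-3p.

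How the arrays are scaled or summarised moved the balance of changes over the whole array. The median change over all tested miRNAs was 0.06 as reported and ran from -0.23, with the total intensity per miRNA, to 0.34, with scaling to the array's dmr control features. Among the calls 58.9% were higher in UUO as reported, 33.4% with the total intensity, 36.3% with the ratio table, 43.5% with quantile normalization, 46.4% with normexp, 69.8% with the percentile over all mouse probes, 73.4% with no scaling and 79.1% with the dmr features. Relative to the median of each setting, the change of miR-223-3p lay between 1.98 and 2.25 on the log2 scale. That of miR-142a-3p lay between 2.13 and 2.27, and that of miR-142a-5p between 1.24 and 1.98. That of miR-511-3p lay between 0.80 and 8.49. miR-223-3p and both miR-142a arms were called higher in all 8 settings. The place of the 4 arms among the changes of at least 4-fold was less stable. With quantile normalization 9 of 408 miRNAs reached that size, 3 of the 4 arms among them, while miR-142a-5p changed by 1.63 (log2) and ranked 12. That size was reached by 2 of 407 miRNAs with normexp, 11 of 499 with the total intensity and 43 of 499 with the ratio table. In each of these last settings 1 of the 4 arms did so. That arm was miR-142a-3p with normexp. With the total intensity and the ratio table it was miR-511-3p, undetected in Sham, and neither miR-223-3p nor a miR-142a arm reached 4-fold.

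**Figure D5:**
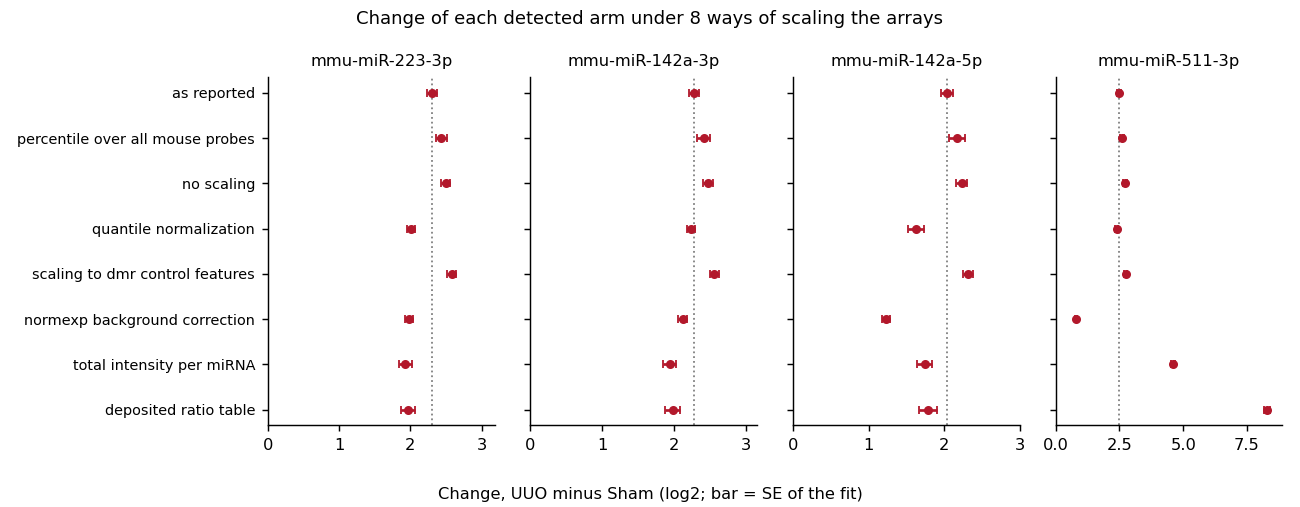
Change (UUO minus Sham, log2, with the SE of the fit over 8 arrays) of each detected arm under 8 ways of scaling or summarising the arrays. The dotted line is the change as reported, and the axis of miR-511-3p is longer than the others. The points of miR-223-3p lie between 1.93 and 2.58 and those of miR-142a-3p between 1.95 and 2.56, while miR-511-3p runs from 0.80 to 8.29.

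Other miRNAs known from leukocytes moved in the same direction. Of 11 listed arms 5 were tested and all 5 were called higher, where 162 of all 408 tested miRNAs were (39.7%). Their median change was 1.48 on the log2 scale against 0.06 over all tested miRNAs. The other 6 listed arms were detected on no array. The list was written with earlier results of these data known, so its count is a description. miR-146b-5p, an arm of the miR-146 family that damps innate immune signalling, changed by 2.66 ± 0.07 (log2, SE) and miR-342-3p by 1.71 ± 0.05. miR-155-5p, which is induced in activated lymphocytes and macrophages, changed by 1.48 ± 0.06, and miR-146a-5p by 0.92 ± 0.13. The remaining one, miR-150-5p of mature lymphocytes, rose by 0.59 ± 0.10, and is named here after its value was seen. With the total intensity per miRNA 6 of these arms were tested, of which 4 were called higher and 0 lower. Over all 499 miRNAs tested in that setting 109 were called higher and 217 lower.

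Marker miRNAs of other cells moved with the groups as well, and their part in the changes above was not tested. For comparison, 162 of all 408 tested miRNAs were called higher (39.7%) and 113 lower. The 3 lymphocyte markers, all of them also in the leukocyte list, were each called higher. Their summed scaled signal ran from 1.27 to 1.32 on UUO arrays and from 0.441 to 0.502 on Sham arrays. Since miR-155-5p is also induced in macrophages, that sum is not particular to lymphocytes. With the total intensity 2 of the 3 were called higher and 0 lower. Of the 5 fibroblast and smooth muscle markers 4 were called higher and 0 lower, with changes of 1.80 for miR-199a-3p and 0.24 for miR-143-3p (log2). Their summed signal ran from 13.5 to 15.5 on UUO arrays and from 5.38 to 5.99 on Sham arrays. In 3 settings (the ratio table, the total intensity and quantile normalization) 3 of the 5 were called higher and 1 lower. Of the 8 kidney epithelium markers 6 were called lower and 0 higher, with changes of -0.75 for miR-30a-5p and -0.34 for miR-200b-3p (log2). Their summed signal ran from 33.8 to 39.95 on UUO arrays and from 55.2 to 58.8 on Sham arrays. In 3 scalings 2 of the 8 were called higher, while others were still called lower. These were 5 with the percentile over all mouse probes, 4 with no scaling and 3 with the dmr features.

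Of 5 red blood cell markers 3 were tested and 2 were detected on no array. Of those tested 2 were called lower and 0 higher: miR-451a changed by -0.84 and miR-144-3p by -0.81 on the log2 scale. Their summed signal ran from 2.12 to 3.86 on UUO arrays and from 3.72 to 5.48 on Sham arrays, ranges that overlap, and no scaling called any of them higher. The endothelial markers miR-126a-3p and miR-126a-5p changed by -0.14 (not called) and -0.22 (called), and their summed signal ran from 10.67 to 12.4 on UUO arrays and from 12.5 to 13.2 on Sham arrays. The median of this pair was above 0 with no scaling and with the dmr features, so no direction is read from it.

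The miRNAs whose pattern over the 8 arrays was nearest to each arm were sought among the 404 tested miRNAs that are not members. The measure was the root mean square difference of log2 signals, after each miRNA's own mean was subtracted. The 4 arms were left out of this search, so the distances below do not tell how near the arms lie to each other. For miR-223-3p the nearest non-members were miR-214-3p (0.160), miR-21a-5p (0.161) and miR-132-3p (0.192), against a median distance of 1.13. For miR-142a-3p they were the same 3, at 0.150, 0.168 and 0.195. miR-142a-5p was nearest to miR-199a-5p (0.164), miR-18a-5p (0.175) and miR-199a-3p (0.192). miR-511-3p was nearest to miR-21a-5p (0.0850), miR-146b-5p (0.132) and miR-132-3p (0.138). All its Sham values are the floor, so these distances depend on where the floor was set and leave out its spread in Sham. With 2 groups of 4 arrays this measure reflects mostly the size of the change: miR-214-3p changed by 2.42, miR-21a-5p by 2.56 and miR-132-3p by 2.56 on the log2 scale.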

How the data were processed

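RNA carried 1 dye, Cy3, added by ligation, per the labels' protocols. The authors deposited spot intensities of an Agilent miRNA array, which per the file headers are background-subtracted signals on a linear scale, made with Agilent Feature Extraction 10.7.3.1 and not normalized between arrays. The deposited ratio table of the whole series, for which the sources used here do not say how the factor per array was set, served as an alternative. Control spots and outlier-flagged spots (2.64 to 2.95%) were dropped and the spots of a probe averaged. Arrays were divided by the 75th percentile of the 623 probes that all 8 arrays detected, raised to a floor of -4.89 (log2) and fitted with limma 3.58.1 (R 4.3.3) on group alone. The fit was tested on simulated data. Differences between members were tested by exact permutation. The members, the lists of marker miRNAs and the naming rule were chosen with earlier results of these data known. The rule named every member and probe, up to 4 other leukocyte miRNAs by size of change and 2 markers per list by mean signal. It also named, for each arm, the 3 nearest miRNAs that are not members. Alternatives covered scaling, background, floor, filter, probe summary, left-out arrays and blocks. If samples shared an animal, p-values would measure only the spread between samples. The number of arrays limits the precision. Sequences and positions are RefSeq's (GRCm38.p6). The array's own probe positions were not used.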

Additional observations from a re-analysis of the deposited data

How the results depend on the processing

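miR-223-3p and both miR-142a arms were called higher in UUO under every alternative run. miR-511-3p kept its sign wherever it was fitted, but that sign was fixed in advance, since only UUO arrays detected the arm. It was not fitted when detection on all 8 arrays was required. The log2 changes ran from 1.93 to 2.58 for miR-223-3p, 1.95 to 2.56 for miR-142a-3p, 1.23 to 2.32 for miR-142a-5p and 0.80 to 8.29 for miR-511-3p. The sample numbers 1, 2 and 3 shared by the groups did not pair the samples (correlations of deviations -0.00, 0.12 and -0.30, and of the 6 arrays whose number occurs in both groups, 0 matched best with their own number). With them as a replicate block the changes were 2.35, 2.29, 2.05 and 2.56 for miR-223-3p, miR-142a-3p, miR-142a-5p and miR-511-3p, and the differences between arms, in the order given next, were 0.24, 0.07, 0.20 and 0.27. miR-142a-3p minus miR-142a-5p had the unadjusted exact p of 0.0286 under every alternative that gave a test, and at 0.25 an adjusted p of 0.0571 over the 2 pairs without miR-511-3p. miR-223-3p minus miR-142a-3p was -0.23 with quantile normalization, -0.15 with normexp, -0.0168 with both the total intensity and the ratio table, -0.0368 with the mean of all detected probes, -0.0018 with outlier spots kept, and -0.0245 to 0.0456 over left-out arrays. miR-511-3p minus miR-223-3p was 0.17 with the dmr features, -1.18 with normexp, 0.0347 with the mean of probes, 0.13 with the median of spots, -0.81 with a doubled floor, 1.25 with no floor, 2.67 with the total intensity, 6.32 with the ratio table, and 0.16 to 0.22 over left-out arrays. miR-511-3p minus miR-142a-3p was 0.20 with all mouse probes in the percentile, 0.16 with quantile normalization, -1.32 with normexp, -0.0021 with the mean of probes, 0.14 with the median of spots, 0.21 with outlier spots kept, -0.79 with a doubled floor, 1.27 with no floor, 2.65 with the total intensity, 6.30 with the ratio table, and 0.15 to 0.24 over left-out arrays. The floor settings move the Sham level of miR-511-3p by construction. The normexp offset of 50 intensity units narrows the changes of dim arms by construction, and how much of each normexp shift it makes up was not tested. The cause of the other shifts was not tested. The number of miRNAs called lower, 113 as reported, was 63 with the dmr features, 207 with the ratio table and 217 with the total intensity. Dim signal limits miR-511-3p in Sham and all of miR-223-5p and miR-511-5p, whose values stayed around background.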
